A study of Mus musculus with 8 samples.

Results

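Chromatin accessibility was compared between satellite cells isolated 2.5 days after muscle injury (ASC, activated satellite cells) and freshly isolated satellite cells (QSC, quiescent satellite cells), using the 2 ASC and the 2 QSC libraries, 4 of the 8 libraries of the series. All of them came from hindlimb muscle of C57BL/6 mice, were made by ATAC-seq (a transposase inserts sequencing adapters where DNA is accessible), and carry the treatment label "none". The labels do not give the animals' age, the kind of injury, the marker used to isolate the cells, or whether replicates came from separate animals, so each p-value rests on the spread among these samples alone, and that spread may be technical. One growth protocol that speaks of culture is attached to all 8 libraries, and whether it applied to the cells taken straight from muscle is not given. The other 4 libraries, of cultured cells with a control siRNA or an siRNA against LncMyod (48 h), were not compared here. They served to estimate spread and to show where else a region was held. They also entered the merging of regions, the filter on genes tested and the scaling of covered length.

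Satellite cells are the stem cells of skeletal muscle. They lie between the muscle fibre and its basal lamina, are held out of the cell cycle by signals such as Notch and by contact with the fibre and the matrix, and after injury they enter the cycle, move, proliferate as myoblasts and then fuse into fibres. Pax7 marks them at rest, Myf5 and Myod1 drive commitment, and Myog drives terminal differentiation. Open chromatin at gene starts is shared widely between cell types, whereas open chromatin away from starts, which contains most enhancers, differs more.

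Each library is a list of broad peaks. The ASC libraries held 70341 and 59666 peaks covering 51.2 and 42.4 Mb, and the QSC libraries 69595 and 64991 peaks covering 50.7 and 47.1 Mb; read depth is unknown because the lists give no counts. Peaks of the whole series were merged into 141301 regions, of which the 4 libraries together held 97866. Both ASC libraries and neither QSC library held 8465 regions (8.65% of the 97866), both QSC and neither ASC library held 12069 (12.3%), and all 4 held 39371. A region without a peak in a library is not shown to be closed there. Leaving out a library lets more regions qualify: the ASC-only count became 14368 without ASC replicate 1 and 17931 without ASC replicate 2, and the QSC-only count 18433 without ASC replicate 1.

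Gene starts were rare among the regions held by 1 group. A RefSeq start of a named protein-coding gene lay in 219 ASC-only regions (221 genes) and in 61 QSC-only regions (62 genes), against 322 regions ranked higher and 165 ranked lower in ASC among those held by all 4 libraries. The sequence from 250 bases before to 50 after the start is printed for 6 of these genes (RefSeq, GRCm38.p6, the coordinates of mm10), chosen because they stand for the 4 kinds of region and for muscle, matrix, adhesion and interferon genes. They are the bone and cartilage regulator Runx2 (chr17:44814578-44814877, minus strand) and the neural cell adhesion gene L1cam (chrX:73880741-73881040, minus) from ASC-only regions, the dystrophin gene Dmd (chrX:82948620-82948919, plus) and the interferon-induced gene Ifit1 (chr19:34640639-34640938, plus) from QSC-only regions, the muscle-specific histone methyltransferase gene Smyd1 (chr6:71262232-71262531, minus) from a region ranked higher in ASC, and the collagen VI gene Col6a1 (chr10:76725995-76726294, minus) from a region ranked lower. Capitals mark matches to the motif letters given next.
Runx2: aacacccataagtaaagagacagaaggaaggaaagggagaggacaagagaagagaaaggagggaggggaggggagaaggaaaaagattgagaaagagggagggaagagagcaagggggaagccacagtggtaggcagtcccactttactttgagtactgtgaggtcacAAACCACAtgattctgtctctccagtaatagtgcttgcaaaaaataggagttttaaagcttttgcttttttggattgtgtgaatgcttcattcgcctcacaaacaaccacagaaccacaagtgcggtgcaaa
L1cam: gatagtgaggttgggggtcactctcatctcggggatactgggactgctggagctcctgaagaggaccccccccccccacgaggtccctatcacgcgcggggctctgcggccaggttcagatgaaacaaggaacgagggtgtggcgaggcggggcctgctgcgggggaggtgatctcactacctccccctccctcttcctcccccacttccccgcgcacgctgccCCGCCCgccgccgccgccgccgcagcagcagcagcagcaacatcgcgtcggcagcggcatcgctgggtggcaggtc
Dmd: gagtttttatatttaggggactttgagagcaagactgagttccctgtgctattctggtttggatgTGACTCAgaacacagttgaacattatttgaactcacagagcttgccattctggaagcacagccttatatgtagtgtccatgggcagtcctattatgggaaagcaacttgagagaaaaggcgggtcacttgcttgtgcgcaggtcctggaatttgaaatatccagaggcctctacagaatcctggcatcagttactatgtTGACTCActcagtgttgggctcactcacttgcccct
Ifit1: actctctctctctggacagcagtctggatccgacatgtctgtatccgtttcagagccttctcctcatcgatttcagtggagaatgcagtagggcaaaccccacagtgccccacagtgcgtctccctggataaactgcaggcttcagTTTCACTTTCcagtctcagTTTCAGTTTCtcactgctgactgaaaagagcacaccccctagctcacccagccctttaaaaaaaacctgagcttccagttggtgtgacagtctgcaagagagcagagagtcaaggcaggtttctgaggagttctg
Smyd1: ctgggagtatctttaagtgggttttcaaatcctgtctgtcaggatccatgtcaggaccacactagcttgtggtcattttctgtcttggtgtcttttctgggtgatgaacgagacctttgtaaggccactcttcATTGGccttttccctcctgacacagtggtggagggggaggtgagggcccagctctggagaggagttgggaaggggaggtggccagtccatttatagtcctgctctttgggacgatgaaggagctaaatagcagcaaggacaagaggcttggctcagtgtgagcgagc
Col6a1: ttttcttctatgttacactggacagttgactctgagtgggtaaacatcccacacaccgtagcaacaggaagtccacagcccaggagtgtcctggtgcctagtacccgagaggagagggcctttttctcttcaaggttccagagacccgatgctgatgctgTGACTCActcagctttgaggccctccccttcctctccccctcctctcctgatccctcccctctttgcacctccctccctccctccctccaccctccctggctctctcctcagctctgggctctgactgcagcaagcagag

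Short motif letters were searched on both strands of these windows. The letters TGTGGTTT (bound by Runx factors) matched 82 bases before the Runx2 start on the reverse strand, and GGGCGG (the GC box of SP and KLF factors) 26 bases before the L1cam start. The AP-1 letters TGANTCA matched 185 bases before and 15 bases after the Dmd start and 90 bases before the Col6a1 start. Ifit1 held the interferon element letters (TTTC, a gap of any 2 bases, TTTC) at 104 and at 85 bases before its start, and Smyd1 held CCAAT (bound by NF-Y) on the reverse strand 117 bases before. A match is a description of letters and not a measured binding site.

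The same letters were counted over all promoter windows of the table. AP-1 letters stood in 14.4% of the 360 windows in ASC-only regions and in 16.1% of the 205 in QSC-only regions, against 4.98% of the 13808 in regions held by all 4 libraries without a rank call and 7.81% of all 32851 windows. The E-box CAGCTG, a core of many MyoD and E-protein sites, stood in 24.2% of ASC-only and 30.2% of QSC-only windows, against 15.7% where all 4 libraries held an uncalled region and 16.3% of all windows. Interferon element letters stood in 1.11% of ASC-only and 6.34% of QSC-only windows, in 2.09% of those ranked higher and 6.97% of those ranked lower in ASC, and in 3.44% of all. GC boxes ran the other way with CpG content: 67.2% of the uncalled shared windows held one and had a median of 22 CpG, against 36.4% and 8 CpG in ASC-only and 13.7% and 4 CpG in QSC-only windows. These shares are descriptions, since windows differ in base composition and alternative starts of 1 gene share sequence.

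The signals at those 6 starts were as follows, each given as a percentile of fold enrichment (the peak's height over its local background, the authors' value) among the peaks of its own library. The Runx2 region (chr17:44813523-44815347) lay at the 26.3 and 45.01 percentile of the ASC libraries with fold enrichments of 3.08 and 3.17, and the L1cam region (chrX:73880241-73881351) at 51.3 and 36.0. The Dmd region (chrX:82948538-82950328) lay at the 99.2 percentile of QSC replicate 1 and the 74.4 of QSC replicate 2, and the Ifit1 region (chr19:34640110-34641301) at 66.5 and 60.6. No peak of the opposite group touched any of these 4 regions. Among regions held by all 4 libraries, the Smyd1 start rose from the 6.96 and 15.1 percentile in QSC to 66.4 and 57.8 in ASC (adjusted p = 0.00857), and the Col6a1 start fell from 42.5 and 38.9 to 0.926 and 0.225 (adjusted p = 0.00331). In both, the ASC and QSC values did not overlap, and the call held without any single library.

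Other starts followed the same 4 patterns. ASC-only starts with the strongest peaks belonged to Cartpt, a neuropeptide precursor gene (88.7 and 81.0 percentile), Ptpn22, a tyrosine phosphatase of lymphocytes (85.1 and 77.5), Dgka, a diacylglycerol kinase gene (78.8 and 73.7), Fhit, Glrp1 and the interferon-induced family member Ifitm6. All 6 of these regions were held by all 4 cultured libraries too. QSC-only starts with the strongest peaks, after Dmd, belonged to Pparg, the nuclear receptor of fat cell formation (78.9 and 74.0), the sphingomyelin synthase gene Sgms1 (92.2 and 72.4), Tmcc3, the secreted phospholipase gene Pla2g5 and Galnt9. No cultured library held the Pparg or Galnt9 region, and all 4 held those of Dmd and Pla2g5. Starts of the myosin genes Myh3 and Myh4 on chromosome 11 were opposite: the start of Myh3, embryonic myosin, lay in an ASC-only region (24.6 and 51.7 percentile) that all cultured libraries held, and the start of Myh4, a fast myosin of adult fibres, in a QSC-only region (29.3 and 27.8) that none of them held. The teneurin gene Tenm4 had a QSC-only start (49.5 and 50.9 percentile), and so had the secreted signal gene Bmp4, there with peaks among the weakest of both libraries (0.586 and 1.04).

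Within each library, fold enrichment was ranked over the 39371 regions held by all 4, which sets aside differences in overall height between libraries. Ranks were closer between replicates (Spearman rank correlation across regions 0.881 for ASC and 0.919 for QSC) than between groups (0.664 to 0.697). These are descriptions, and regions are not independent replicates. Both ASC libraries ranked above both QSC libraries at 11728 regions (29.8%) and below both at 11524 (29.3%). With a gap of at least 20 percentile points between the groups, 2951 regions (7.5%) were higher and 3056 (7.76%) lower in ASC. The limma test on ranks turned into normal scores called 6394 regions at an adjusted p under 0.05 (16.2%), of which 3173 (8.06%) ranked higher and 3221 (8.18%) lower in ASC. Because these regions were called with the same 4 libraries, their direction could hardly turn when 1 was left out. Without 1 library, 2567 to 3489 of the 6394 were called again, and all 6394 kept their direction; the count of raised regions was 1747 without ASC replicate 1, 1451 without ASC replicate 2 and 1723 without QSC replicate 2, and that of lowered regions 1415 without ASC replicate 2, 1803 without QSC replicate 1 and 1705 without QSC replicate 2.

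**Figure D1:**
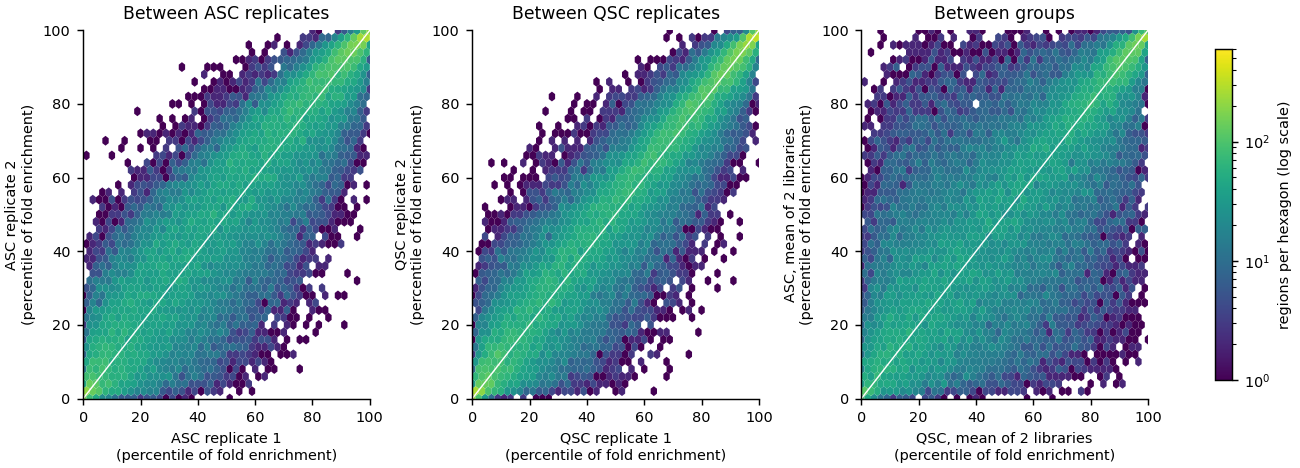
Percentile of fold enrichment over the 39371 regions held by all 4 libraries, for the 2 ASC replicates (left), the 2 QSC replicates (middle) and the group means (right, QSC on the horizontal axis); colour is the number of regions per hexagon on a log scale and the white line is equality. Points hug the line within groups (Spearman correlation 0.881 and 0.919) and fill the off-diagonal corners between groups.

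Rank shifts were uncommon at gene starts. Of the 11029 shared regions that contained a start, 3.64% ranked higher and 2.08% lower in ASC, whereas at 5 to 20 kb from a start, among 9027 regions, 9.38% ranked higher and 10.6% lower. Regions held by 1 group were also distal: 3.90% of ASC-only and 1.52% of QSC-only regions contained a start, against 28.9% of regions held by all 4, and their median widths were 692 and 590 bp against 1112 bp. The cultured libraries held 63.3% to 79.1% of the ASC-only regions but 19.2% to 30.9% of the QSC-only regions. Of the regions ranked lower in ASC, 80.0% to 90.3% were held in culture, and of those ranked higher 93.6% to 97.3%.

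**Figure D2:**
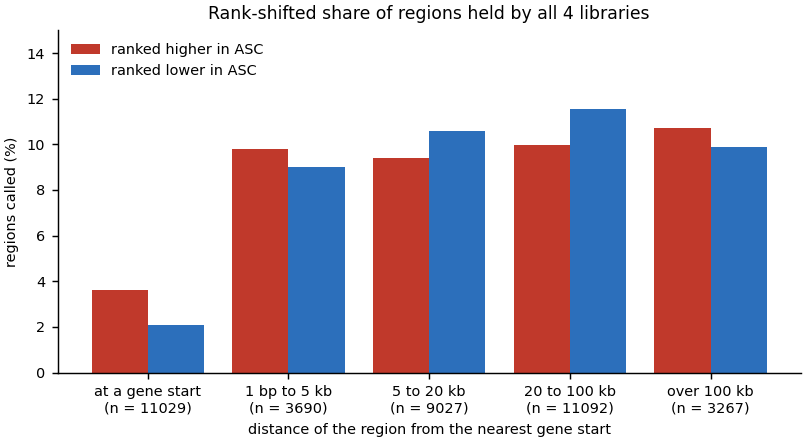
Share of shared regions called as ranked higher (red) or lower (blue) in ASC, in percent, by distance to the nearest RefSeq gene start, with the number of regions under each pair of bars. At a gene start the shares were 3.64% and 2.08%; every class farther away lay between 8.997% and 11.6%.

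The 10 widest rank gaps in each direction had QSC and ASC percentiles at opposite ends of the scale. In the raised set the ASC libraries lay between the 81.8 and 99.9 percentile and the QSC libraries between 0.535 and 20.2. In the lowered set the ASC libraries lay between 1.35 and 14.2 and the QSC libraries between 83.4 and 99.4. Adjusted p was 0.00222 to 0.00320 for the 20 regions, and all 20 passed without any single library; they were chosen for this gap, so the values describe them. None of the 20 contained a listed RefSeq gene start, though starts of some genes may be missing from the list.

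The widest gap lay at chr2:164309454-164309991, 6760 bp from the start of the seminal vesicle secretory gene Svs6: fold enrichment ranked at the 99.9 and 99.8 percentile in ASC and at 5.11 and 7.66 in QSC. A region inside Dpyd, which encodes the enzyme that begins pyrimidine breakdown (chr3:119142959-119143653), ranked at 98.2 and 96.6 in ASC and 12.4 and 3.39 in QSC. Inside Zc3hav1, an antiviral zinc finger gene that binds viral RNA (chr6:38315952-38316438), the percentiles were 94.1 and 96.7 against 10.6 and 2.58. The Zc3hav1 region was held by none of the 4 cultured libraries, while the other 9 raised regions were held by all of them. At 16128 bp from Ccn1, a matricellular gene induced by growth factors and by YAP (chr3:145666113-145666876), they were 95.5 and 94.5 against 13.2 and 8.72. The remaining raised regions lay near Adamtsl4, a fibrillin-binding matrix gene, and inside Zfand4, the C-type lectin gene Clec2g, the actin and membrane scaffold gene Mtss1, the transcription factor gene Zfp143 and the endosomal kinesin gene Kif16b.

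Among the lowered regions, one inside Susd1 (chr4:59380921-59382271) ranked at the 9.48 and 12.4 percentile in ASC and at 95.2 and 99.4 in QSC. Inside Bicc1, an RNA-binding protein gene (chr10:71048782-71049801), the percentiles were 7.88 and 2.13 against 90.9 and 90.5. Inside Hs6st3, which encodes a sulfotransferase that modifies heparan sulfate, a coreceptor of growth factors (chr14:119512066-119512757), they were 9.74 and 12.6 against 98.6 and 94.7. In each of these the ASC libraries lay together at the bottom and the QSC libraries at the top of the ranking. The others lay near Itm2b and Sftpb and inside Arsj, the Rab27 effector gene Sytl2, the Elongator subunit gene Elp3, the tyrosine kinase gene Abl2 and Prkar2b, a regulatory subunit gene of protein kinase A. The regions of Hs6st3, Itm2b, Arsj and Prkar2b were held by no cultured library.

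**Figure D3:**
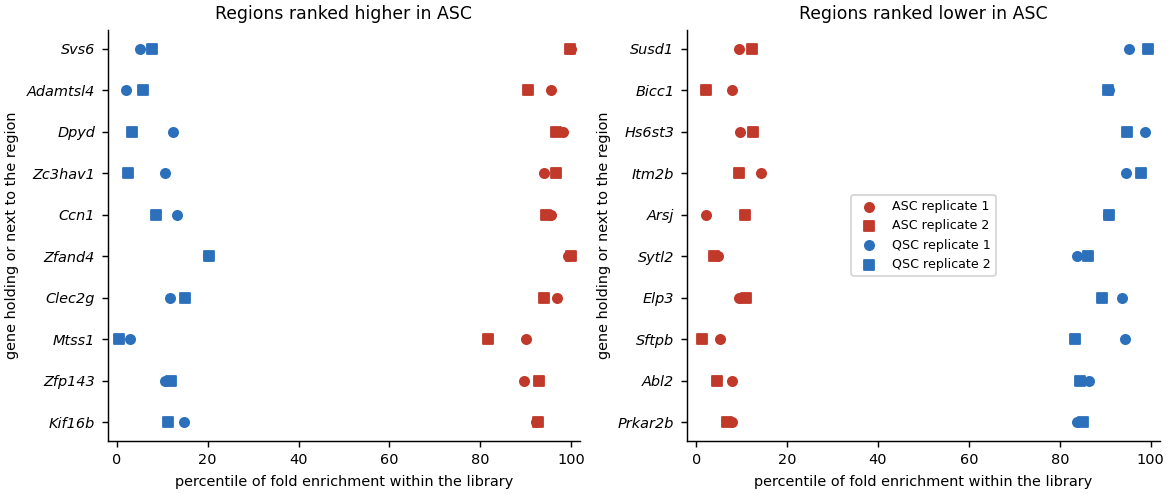
Percentile of fold enrichment within each library at the 10 shared regions with the widest gap in each direction, named by the gene that contains the region or the nearest start; red points are ASC and blue points QSC, circles replicate 1 and squares replicate 2. All ASC points lie at or above 81.8 on the left and at or below 14.2 on the right.

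Over whole gene loci, the length covered by peaks in the gene body and 10 kb on both sides was compared after bringing every library to the same total covered length. Of 27938 loci tested, 3580 passed an adjusted p of 0.05 (12.8%): 2112 had more covered length in ASC (7.56%) and 1468 had less (5.25%). That test took its spread from all 8 libraries. Fitted on the 4 ASC and QSC libraries alone, 958 of the 3580 were called again. Of the loci examined by name, 96 lost their call in that fit, among them Nfia, Tek, Lama2, Utrn and Fgf2. Arhgap15, Slc24a3, Shank2 and Svep1 were among those that kept it. Quantile normalization gave 1603 more and 1716 less, so the balance of directions depends on the scaling, and all 3580 kept their direction there. Counts of loci with more were 1040, 559 and 379 without ASC replicate 2, QSC replicate 1 and QSC replicate 2, and of loci with less 615, 367 and 333. Of the 3580, 667 to 2122 were called again without 1 library, and all kept their direction. These loci were called with the same libraries, so their direction could hardly turn in such fits. In what follows, "more" and "less" mean covered length in ASC past that threshold, and "ranked higher" and "ranked lower" mean the rank test.

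Covered length and rank leaned the same way but overlapped only in part. Of the 2112 loci with more, 362 had a region ranked higher and 187 one ranked lower. Of the 1468 with less, 201 had one ranked higher and 248 one ranked lower. Among the 24358 loci not called, 2636 had one ranked higher and 2796 one ranked lower. Many loci had changes in both directions: of 20114 named protein-coding loci, 6080 had an ASC-only or raised region, 5248 a QSC-only or lowered region, and 2478 had both.

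Loci with the largest surplus of ASC-only regions included several large genes. Slc24a3, which encodes a sodium, potassium and calcium exchanger (chr2:145167775-145642166), had 8 ASC-only and 0 QSC-only regions and 3 regions ranked higher; covered length was 10.6 and 11.7 kb in ASC and 3.19 and 2.57 kb in QSC (log2 change 1.79, SE 0.14, adjusted p = 0.00190). Shank2, a scaffold gene of synapses, had 7 and 0, with 13.5 and 15.6 kb in ASC and 5.31 and 5.22 kb in QSC (log2 change 1.38). Fmn1, which encodes a formin that nucleates actin, had 6 and 0, with 16.0 and 16.1 kb against 5.94 and 5.21 kb (log2 change 1.44). In all 3 both ASC libraries were above both QSC libraries by more than the replicate spread, and the calls held without any single library. Snx29, a sorting nexin gene, had 9 and 1 (14.0 and 18.3 kb against 6.87 and 7.03 kb), a call lost without QSC replicate 2. Myo16 (8 and 0), which encodes an unconventional myosin, lost its call without any 1 of the 4 libraries, and Asic2 (8 and 0), an acid-sensing ion channel gene, lost it without either ASC library. Camta1, a calmodulin-binding transcription activator gene, had 10 ASC-only and 2 QSC-only regions but 34.8 and 33.7 kb against 28.9 and 28.1 kb (log2 change 0.26, adjusted p = 0.229), which did not pass and turned negative with a stricter peak threshold (minimum −log10 q of 5).

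The loci with the lowest p among those with at least 1 kb in all 4 libraries added 3 with more. Tmem108 had 9.46 and 8.75 kb in ASC and 3.30 and 3.33 kb in QSC (log2 change 1.33). Pstpip1, an actin-associated adaptor gene of blood cells, had 7.41 and 7.32 kb against 2.81 and 2.58 kb (log2 change 1.302). Zdhhc22, a palmitoyltransferase gene, had 4.16 and 4.80 kb against 1.31 and 1.21 kb (log2 change 1.50). The groups did not overlap in any of them, and all passed without any single library, but all 3 calls were lost with the stricter peak threshold.

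Loci with the largest surplus of QSC-only regions included 3 genes of the Arhgap family, which act on regulators of the actin cytoskeleton. Arhgap15 (chr2:43748798-44395953) had 16 QSC-only and 0 ASC-only regions, with 2.71 and 2.94 kb covered in ASC and 17.9 and 15.3 kb in QSC (log2 change −2.36, SE 0.24, adjusted p = 0.00344). Arhgap26 had 27 and 4 (37.6 and 32.3 kb against 49.4 and 53.5 kb) and Arhgap24 17 and 1 (17.7 and 14.1 kb against 31.4 and 30.3 kb). The Arhgap15 call held without any single library, whereas that of Arhgap24 was lost without either QSC library and that of Arhgap26 passed only without ASC replicate 1. The others with a large surplus were the receptor phosphatase gene Ptprg (19 and 1), Rora, a nuclear receptor of the circadian clock (18 and 1), the recombination gene Rad51b (19 and 3), the CREB family gene Creb5 (18 and 3) and Anks1b (18 and 2). All of these had less at log2 changes of −0.69 to −1.17, and each lost its call without at least 2 of the libraries.

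By lowest p, Svep1, a large adhesion protein gene of the extracellular matrix, had 1.81 and 1.96 kb in ASC and 6.44 and 6.15 kb in QSC (log2 change −1.51). Mpp7, a cell polarity scaffold gene, had 1.294 and 1.295 kb against 6.60 and 5.03 kb (log2 change −1.80). Dis3l2, an exoribonuclease gene, had 7.23 and 6.65 kb against 14.7 and 16.6 kb (log2 change −1.12). In each, every QSC value was more than the replicate spread above every ASC value. F5, the coagulation factor V gene, and Sncaip, a synuclein-binding protein gene, had less as well, and these calls too held without any single library, that of Sncaip being lost with the stricter peak threshold.

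**Figure D4:**
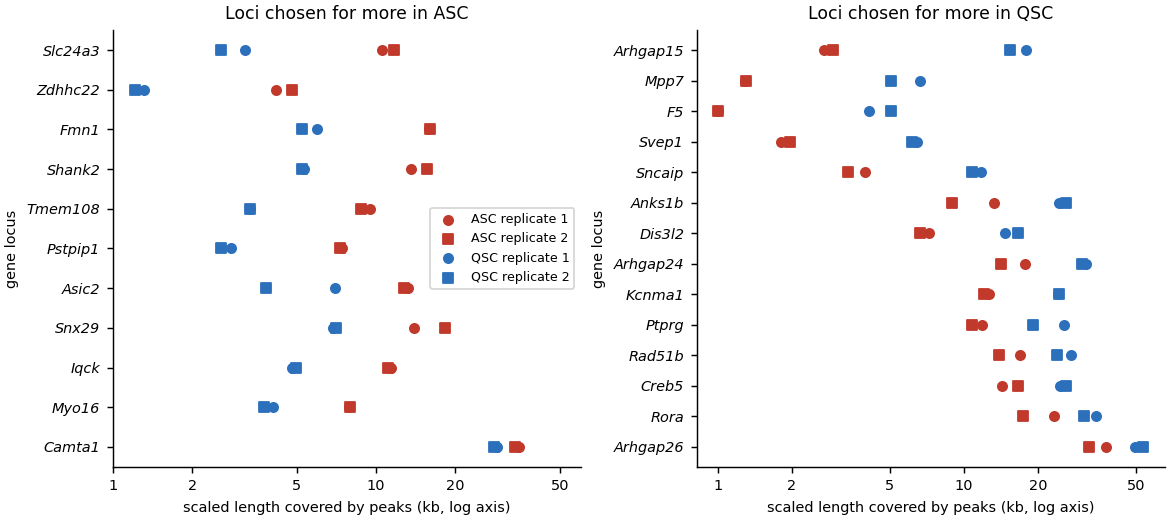
Scaled length covered by peaks (kb, log axis) in each library at the loci with the largest surplus of regions of 1 group or the lowest p, ordered by log2 change; red is ASC, blue is QSC, circles replicate 1 and squares replicate 2. Arhgap15 shows the widest separation on the right, 2.71 and 2.94 kb against 17.9 and 15.3 kb, and Camta1 at the foot of the left panel did not pass.

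None of the 4 lineage genes passed the test. Pax7 had 12.6 and 11.5 kb in ASC and 11.0 and 13.0 kb in QSC (log2 change 0.01, adjusted p = 0.999), with overlapping groups. Myf5 had 4.94 and 4.67 kb against 5.01 and 4.97 kb (log2 change −0.05). Myod1 had 3.57 and 3.00 kb against 2.03 and 2.21 kb (log2 change 0.53, adjusted p = 0.0722), with both ASC libraries above both QSC libraries but short of the threshold. Myog had 2.39 and 2.76 kb against 1.501 and 2.40 kb (log2 change 0.35, adjusted p = 0.319), with groups that overlapped. The signs of Pax7, Myf5 and Myog turned under other settings.

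Genes known from quiescent satellite cells had the highest share of loci with less among the 24 gene lists, 11 of 34 (32.4%, against 5.25% of all loci), 1 with more (2.94%, against 7.56%) and a median log2 change of −0.29 against 0.06 over all loci. The lists were chosen with earlier results of these data known, so this share is a description. Loci of these genes had 99 QSC-only and 19 ASC-only regions, against 12069 and 8465 over all regions. Of the 99, Nfia held 16 and Tenm4 14. Tek, the receptor of angiopoietins, had 3.39 and 3.16 kb in ASC against 5.64 and 6.60 kb in QSC (log2 change −0.81, adjusted p = 0.0128). Lama2, a laminin chain of the fibre's basal lamina, had 6.76 and 5.31 kb against 11.5 and 11.3 kb (log2 change −0.87, adjusted p = 0.0361), and Gpx3, an antioxidant enzyme gene, 1.16 and 1.46 kb against 2.81 and 3.08 kb (log2 change −0.93, adjusted p = 0.0120). The groups did not overlap at these loci, but the calls were lost without either QSC library. Tek lost its call also without ASC replicate 2, and Lama2 without any 1 of the 4 libraries. Calcr, Cd34, Chodl, Nfia, Bmp6, Tenm3, Ptprz1 and Foxo1 also had less, the last with its sign turned under the stricter peak threshold, and the cadherin gene Cdh2 had more. No call of this list held without every library in turn. Calcr, Ptprz1 and Foxo1 lost theirs without any 1 of the 4 libraries. Bmp6, Tenm3 and Cdh2 passed only without ASC replicate 1, and Cd34, Chodl and Nfia failed without either QSC library.

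By rank, regions of these quiescence genes shifted both ways, with 23 of 205 ranked higher (11.2%, against 8.06% of all shared regions) and 22 lower (10.7%, against 8.18%). A region inside Angpt1, which encodes the angiopoietin that binds Tek (chr15:42606790-42608786), ranked at the 82.2 and 81.7 percentile in ASC and at 4.18 and 5.82 in QSC (adjusted p = 0.00306). One at Vcam1, an adhesion receptor of satellite cells (chr3:116128581-116129770), ranked at 71.8 and 79.9 against 17.2 and 10.6 (adjusted p = 0.00521). Both lay far higher in the ASC libraries. The teneurin genes, which encode large adhesion proteins, had regions ranked in both directions, Tenm3 with 1 higher and 4 lower and Tenm4 with 1 higher and 2 lower. The widest shifts at each were downward: in Tenm3 (chr8:48510422-48511734) from 92.7 and 96.8 in QSC to 31.7 and 28.6 in ASC, and in Tenm4 (chr7:96473986-96475262) from 92.5 and 86.4 to 22.0 and 31.9. The calls at these Angpt1, Vcam1, Tenm3 and Tenm4 regions held without any single library. Of 34 loci, 11 had regions ranked in both directions, against 536 of 20114 named protein-coding loci. Loci with more shared regions can hold both more easily. Nfia, with 3 higher and 2 lower, had 25 shared regions.

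Notch signalling holds satellite cells at rest through the receptors' cleaved domain, which acts with Rbpj and Mastermind coactivators. Of 22 loci tested, Lfng, which modifies Notch receptors, and Numbl had more, and the coactivator gene Maml2, the target Heyl and the inhibitor Numb had less (9.09% and 13.6%, against 7.56% and 5.25% of all loci); none of these held without every single library in turn. The Mastermind genes Maml2 and Maml3 each had regions ranked in both directions, Maml3 with 3 higher and 1 lower and Maml2 with 1 higher and 2 lower. A Maml3 region (chr3:52060684-52061368) ranked at the 93.0 and 98.3 percentile in ASC and 25.8 and 27.2 in QSC (adjusted p = 0.00348), and a Maml2 region (chr9:13603211-13604113) at 3.48 and 24.0 against 82.6 and 89.3 (adjusted p = 0.00673). The Maml2 start, in contrast, ranked higher in ASC, at 21.6 and 51.3 against 6.98 and 2.78 (adjusted p = 0.0301). Maml3 had 4 ASC-only and 0 QSC-only regions, and Maml2 1 and 8. A region inside the receptor gene Notch2 (chr3:98146699-98148159) ranked at 82.2 and 48.8 against 4.45 and 5.33 (adjusted p = 0.00693), and one 2557 bp from the Lfng start at 38.7 and 57.6 against 1.09 and 1.51. The groups did not overlap at any of these regions, and the calls held without any single library, except that of the Maml2 start, lost without ASC replicate 2 and without QSC replicate 2. In all, 13 of 94 shared regions of the pathway ranked higher (13.8%, against 8.06% of all shared regions) and 9 lower (9.57%, against 8.18%).

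Adhesion receptors, which tie the cell to fibre and matrix, had 6 of 33 listed loci with less (18.2%, against 5.25% of all loci) and 4 with more (12.1%, against 7.56%). Whole families grouped by gene symbol had lower shares of loci with less than this list. They are set against the same 7.56% with more and 5.25% with less over all loci. Integrins had 5 of 31 with more (16.1%) and 2 with less (6.45%). Cadherins had 2 of 19 each way (10.5%), and protocadherins 2 of 49 each way (4.08%). Itga8, an integrin subunit gene, had 1.43 and 1.11 kb in ASC and 4.18 and 3.76 kb in QSC (log2 change −1.34, adjusted p = 0.00422), a call that held without any single library and was lost with the stricter peak threshold. Cadm2 (log2 change −1.28), the protocadherin genes Pcdh9 and Pcdh7, Itgb8 and Cdh20 had less, and Itga9, Cdh4, Opcml and L1cam more; the signs of Itga9, Cdh4, Opcml and Cdh20 turned with the stricter peak threshold. L1cam was listed at 0 kb in both QSC libraries, against 1.11 and 0.728 kb in ASC. The largest rank shift of the list lay at Nrcam, an L1 family adhesion gene (chr12:44344074-44344565), at the 99.8 and 99.6 percentile in ASC and 20.3 and 56.3 in QSC, where the QSC replicates were far apart (adjusted p = 0.00331). A region in Cdh13, a cadherin without a cytoplasmic tail, ranked at 95.0 and 92.1 against 15.1 and 29.5, and a region in Pcdh9 at 5.02 and 14.5 against 92.7 and 83.6. The start of Itgb6, a subunit of an integrin that activates TGF-beta, rose from 2.22 and 3.07 to 54.6 and 54.4 (adjusted p = 0.00346). The calls of Nrcam, Cdh13, Pcdh9 and Itgb6 held without any single library.

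Of 34 extracellular matrix loci, Vcan had more (2.94%, against 7.56% of all loci), and Svep1, Postn and Bgn had less (8.82%, against 5.25%). The log2 changes were −1.51 for Svep1, −1.10 for Postn and −1.20 for Bgn, and of these only the Svep1 call held without any single library. By rank, 18 of 133 shared regions were lower (13.5%, against 8.18% of all shared regions) and 13 higher (9.77%, against 8.06%). Besides the Col6a1 start, a Vcan region (chr13:89715271-89715940) fell from 80.8 and 75.5 to 10.4 and 8.23 (adjusted p = 0.00342), at a locus that had more covered length. Col3a1, a fibrillar collagen gene, rose at its start (47.7 and 71.5 in ASC, 2.52 and 2.37 in QSC, adjusted p = 0.00403) and fell at a region 43580 bp away (20.2 and 41.5 against 97.2 and 82.0), the latter call being lost without ASC replicate 1. The region at the shared start of the basement membrane collagens Col4a1 and Col4a2 fell from 32.7 and 52.2 to 5.92 and 16.5 (adjusted p = 0.0465), a call that passed only without QSC replicate 1 when a library was left out.

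Of 33 growth factor loci, Fgf2, Insr and Grb10 had less (9.09%, against 5.25% of all loci). Nrg1, which encodes the ErbB ligand neuregulin, had more (3.03%, against 7.56%). The list held 34 QSC-only and 14 ASC-only regions, against 12069 and 8465 over all regions. The sign of Insr turned with the stricter peak threshold. Fgf2, a growth factor that drives satellite cell proliferation, had 3.61 and 4.20 kb in ASC and 8.92 and 7.90 kb in QSC (log2 change −1.02, adjusted p = 0.00650), with 5 QSC-only and 0 ASC-only regions, and the call was lost without QSC replicate 1. Igf1 had neighbouring regions that moved apart: chr10:87879884-87880712 ranked at 75.8 and 72.2 in ASC against 20.02 and 14.9 in QSC, and chr10:87884574-87886143 at 7.68 and 7.05 against 50.4 and 49.2 (adjusted p = 0.00640 and 0.00769). Both calls held without any single library. Of the Wnt, BMP and TGF-beta genes, 2 of 38 had more (Tcf7 and Tgfbr2, with signs turned under the stricter peak threshold; 5.26%, against 7.56% of all loci) and 0 had less (8 and 5 at an unadjusted p under 0.05 by limma). Of 127 shared regions, 12 ranked lower (9.45%, against 8.18% of all shared regions) and 5 higher (3.94%, against 8.06%). A Tgfb2 region (chr1:186656133-186656699) ranked at 23.8 and 23.2 in ASC and 87.1 and 81.9 in QSC, and one in Dkk3, a secreted Dickkopf family gene, at 9.72 and 3.84 against 79.3 and 61.7.

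Of 30 myogenic loci, Mef2c, Lmod3, Smyd1 and Tead4 had more (13.3%, against 7.56% of all loci) and Eya4 less (3.33%, against 5.25%). The list held 26 QSC-only and 16 ASC-only regions, a balance near the 12069 and 8465 over all regions. The sign of Eya4 turned with the stricter peak threshold, and the Tead4 call was lost without any 1 of the 4 libraries. Mef2c, a muscle transcription factor gene, had 5.49 and 5.16 kb in ASC and 3.13 and 2.88 kb in QSC (log2 change 0.73, adjusted p = 0.00794), lost without QSC replicate 2. Lmod3, which encodes the actin filament nucleator leiomodin 3, had 1.82 and 1.87 kb against 0.641 and 0.317 kb (log2 change 1.28, adjusted p = 0.0141), lost without ASC or QSC replicate 2. A region at Lmod3 (chr6:97239504-97240550) ranked at 92.5 and 97.2 against 7.53 and 25.2 (adjusted p = 0.00354). These loci were higher in both ASC libraries than in either QSC library. Tead1, a transcription factor gene of the YAP pathway, had regions moving apart, one at 83.9 and 79.6 against 19.8 and 13.0 (chr7:112885498-112886090) and one at 7.502 and 24.2 against 82.9 and 80.8 (chr7:112785242-112785789). Met, the receptor of hepatocyte growth factor that acts early in activation, likewise had one at 52.3 and 78.8 against 1.04 and 1.505 (chr6:17475986-17476358) and one at 56.9 and 59.3 against 95.1 and 97.7 (chr6:17501419-17502163). All 5 of these rank calls held without any single library.

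Contractile and calcium handling genes had 4 of 47 loci with more (Casq2, Tnni2, Atp2a1 and Tnnc2) and 2 with less (Myh4 and Trdn), 8.51% and 4.26% against 7.56% and 5.25% of all loci. Myh4 was listed at 0 kb in both ASC libraries, against 1.60 and 1.32 kb in QSC, and of this list only the Casq2 call held without any single library. The start of the titin gene Ttn rose from 6.73 and 1.37 to 43.0 and 48.8 (adjusted p = 0.00839, lost without ASC replicate 2), and that of the creatine kinase gene Ckm from 2.27 and 3.25 to 34.4 and 57.2 (adjusted p = 0.00643). Of the neuromuscular junction genes, Utrn, the dystrophin relative utrophin, and the receptor kinase gene Musk had less among 13 loci and 0 had more by limma (2 at an unadjusted p under 0.05). Utrn had 15.9 and 12.3 kb in ASC and 24.7 and 23.5 kb in QSC (log2 change −0.76, adjusted p = 0.0153), with 13 QSC-only and 3 ASC-only regions, and Dmd, its relative, had 3.17 and 2.299 kb against 5.72 and 7.54 kb (log2 change −1.14, adjusted p = 0.0206). Both groups of values were separate, and both calls passed only without ASC replicate 1 when a library was left out.

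Of 39 cell cycle loci, 3 had more (Ccnd2, Plk1 and Mcm5), which is 7.69% against 7.56% of all loci, and 0 had less (5.25% of all loci). By rank, 2 of 92 shared regions were higher and 2 lower (2.17% each, against 8.06% and 8.18% of all shared regions). At an unadjusted p under 0.05 by limma, 9 loci had more and 2 less. None of the 3 held without every library in turn, and the sign of Ccnd2 turned with the stricter peak threshold. The start of Ccnb2, a mitotic cyclin gene, rose from the 89.6 and 79.6 percentile in QSC to 98.6 and 98.9 in ASC (adjusted p = 0.0185). The start of the E2F factor gene E2f2 fell from 26.6 and 37.9 to 5.52 and 1.19 (adjusted p = 0.0154). Both calls were lost without ASC replicate 2 and without QSC replicate 2, and that of Ccnb2 also without ASC replicate 1. In gene families of growth and respiration, 0 of 77 oxidative phosphorylation subunits, 3 of 78 cytosolic (3.85%) and 4 of 78 mitochondrial (5.13%) ribosomal protein loci had more, and 0 in any of these had less by limma. At an unadjusted p under 0.05, 6 oxidative phosphorylation loci had more and 2 less, and 1 cytosolic and 0 mitochondrial ribosomal protein loci had less. Among the genes of ribosome biogenesis and mTORC1, Rptor, the mTORC1 scaffold Raptor, had more (18.8 and 23.6 kb against 14.2 and 10.3 kb) and the kinase gene Akt2 less (1.94 and 1.62 kb against 4.52 and 3.78 kb). Rptor passed only without ASC replicate 1, and Akt2 failed without QSC replicate 1.

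Immediate early and stress genes, which tissue dissociation can induce, had 2 of 32 loci with more (Jun and Klf2) and 2 with less (Hspa1a and Egr1, the latter with its sign turned over gene bodies alone), none of which held without every library in turn. Each count is 6.25%, against 7.56% and 5.25% of all loci. By rank, 8 of 83 shared regions were higher (9.64%, against 8.06% of all shared regions) and 2 lower (2.41%, against 8.18%). A region at Dnajb1, a heat shock cochaperone gene (chr8:83619474-83620364), ranked at 72.5 and 64.7 in ASC and 14.96 and 3.22 in QSC (adjusted p = 0.00746), and one at the AP-1 subunit gene Fosb (chr7:19316443-19317298) at 61.0 and 66.9 against 7.88 and 14.7 (adjusted p = 0.00731). The Hspa1a start ranked higher in ASC, at 72.4 and 73.8 against 37.6 and 34.3, although the locus had less covered length; neither Hspa1a call held without any 1 of the 4 libraries.

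Interferon genes differed member by member. Oas3 had more and Rsad2 and Ifit1 less among 29 loci tested, and 5 of 44 shared regions ranked lower (11.4%, against 8.18% of all shared regions) and 1 higher (2.27%, against 8.06%). The loci are 3.45% with more and 6.90% with less, against 7.56% and 5.25% of all loci. Rsad2, which encodes the antiviral enzyme viperin, had 1.16 and 1.42 kb in ASC and 3.08 and 2.75 kb in QSC (log2 change −0.93, adjusted p = 0.0108). Ifit1 had 0.200 and 0 kb against 1.17 and 1.22 kb (adjusted p = 0.0287). QSC was higher at both loci, and both calls were lost without either QSC library. A region 12538 bp from a start at Irf8, an interferon regulatory factor gene, ranked at 13.8 and 1.497 against 55.5 and 66.1 (adjusted p = 0.0122). The start of Oasl1 rose, from 4.20 and 5.02 to 22.6 and 47.2 (adjusted p = 0.0226), a call that passed only without ASC replicate 1 when a library was left out. Of the chemokine genes Ccl6, Ccl8 and Ccl9 had more and Ccl7 less, of 31 loci (9.68% and 3.23%), the last with its sign turned when 50 kb on both sides were taken. Ccl8 had 1.06 and 1.43 kb in ASC and Ccl6 0.982 and 0.947 kb, and both were listed at 0 in both QSC libraries, calls that held without any single library. A region between Ccl2 and Ccl7 (chr11:82045425-82045956) fell from 88.1 and 84.8 to 23.3 and 34.6 (adjusted p = 0.00618).

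Ion channel genes changed in both directions. Potassium channel genes had 6 of 34 listed loci with more (17.6%, against 7.56% of all loci) and 4 with less (11.8%, against 5.25%). Their loci held 44 QSC-only and 32 ASC-only regions, a balance near the 12069 and 8465 over all regions. The whole symbol family of potassium channel subunits had 11 of 90 loci with more (12.2%) and 6 with less (6.67%). In the symbol family of sodium channel subunits, described after its values were seen, 6 of 14 had more, among them Scn8a, and 1, Scn3b, less. Kcnh1, a voltage-gated channel gene, had 7.95 and 4.87 kb in ASC and 2.21 and 1.61 kb in QSC (log2 change 1.49, adjusted p = 0.0123), and Kcnk2, a mechanosensitive leak channel gene, had 5.64 and 5.62 kb against 3.29 and 1.73 kb (log2 change 1.08, adjusted p = 0.0306). Both were higher in each ASC library, and both calls were lost without QSC replicate 2 and at least 1 other library. Kcnd3, with more, and Kcnq3, with less, turned sign with the stricter peak threshold. A region in Kcnq5 (chr1:21836356-21836831) ranked at 93.2 and 92.5 in ASC against 19.0 and 31.7 in QSC (adjusted p = 0.00362).

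Axon guidance genes, whose ligands and receptors also steer migrating cells, had Sema7a, Sema4d, Sema3e and Efnb2 with more and Epha4, Dcc and Sema6d with less, of 35 (11.4% and 8.57%, against 7.56% and 5.25% of all loci). Epha4, an ephrin receptor gene, had 4.39 and 3.93 kb in ASC and 7.47 and 8.27 kb in QSC (log2 change −0.84, adjusted p = 0.00591), the 1 call of the list that held without any single library, though it was lost with the stricter peak threshold. The start of Sema3e rose from 4.66 and 7.10 to 66.7 and 63.3 (adjusted p = 0.00374). A region in Slit3, a secreted guidance ligand gene, ranked at 32.8 and 70.0 against 0.880 and 0.532 (adjusted p = 0.00467). The groups did not overlap at either region.

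Among regulators of transcription and RNA, Runx3 and Ebf1 had more and Tcf4, Rora and Bach2 less, of 43 loci (4.65% and 6.98%, against 7.56% and 5.25% of all loci). Runx2 did not pass over its whole locus, although it had 22.4 and 19.4 kb against 14.6 and 15.8 kb (adjusted p = 0.0543), 6 ASC-only and 2 QSC-only regions, 4 regions ranked higher and 3 lower. Sox5, a transcription factor gene of cartilage and neurons, had adjacent regions with opposite shifts: chr6:144693195-144693874 ranked at 45.2 and 52.3 in ASC and 5.04 and 0.933 in QSC, and chr6:144695555-144696226 at 21.1 and 27.4 against 95.1 and 81.2 (adjusted p = 0.00618 and 0.00664). A region at Igf2bp3, an RNA-binding protein gene of proliferating and fetal cells (chr6:49217597-49218356), rose from 2.71 and 4.63 to 59.1 and 77.2 (adjusted p = 0.00362). One at Gli2, an effector of Hedgehog signalling, fell from 57.8 and 68.7 to 11.4 and 5.80 (adjusted p = 0.00622). All 4 calls held without any single library. Glycolysis and lipid genes had 0 of 32 loci with more by limma (4 at an unadjusted p under 0.05) and 3 with less (9.38%: Adh1, Lpl and Fabp3, the last with its sign turned over gene bodies alone), and Adh1, an alcohol dehydrogenase gene, was listed at 0 kb in ASC against 2.04 and 1.98 kb in QSC.

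Families grouped by gene symbol are set against the same 7.56% with more and 5.25% with less over all loci. Of 45 keratin loci tested, which lie in dense clusters and share peaks, 12 had more (26.7%), among them Krt5, Krt14 and Krt19, and 0 less by limma, also at an unadjusted p under 0.05 (median log2 change 0.82). Phosphodiesterase genes, which end cyclic nucleotide signals, had 4 of 24 with more and 4 with less (16.7% each). They held 84 QSC-only and 27 ASC-only regions, against 12069 and 8465 over all regions. Receptor protein tyrosine phosphatase genes had 5 of 20 with less (25%) and 4 with more (20%), and ADAM and ADAMTS protease genes 7 of 43 with less (16.3%) and 3 with more (6.98%). Of the 38 Hox loci tested, 0 passed in either direction by limma, and 4 had more and 0 less at an unadjusted p under 0.05.

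**Figure D5:**
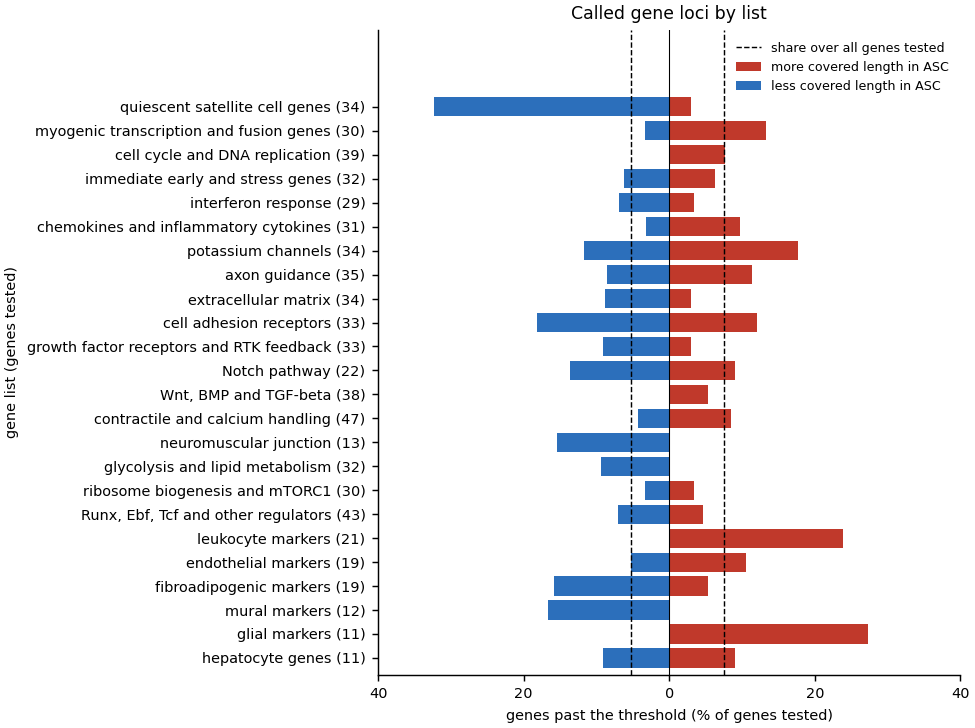
Share of tested loci with more (red, to the right) or less (blue, to the left) covered length in ASC for each of the 24 gene lists, in percent, with the number tested in brackets; dashed lines mark the shares over all 27938 loci, 7.56% and 5.25%. The quiescence list reaches 32.4% on the left, and the leukocyte and glial lists exceed the right line with 0 on the left.

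Markers of other cells moved with the groups in part. Satellite cell markers were present in all 4 libraries, 10 of 10 above 0 kb with a summed covered length of 49.8 and 46.6 kb in ASC and 46.8 and 49.0 kb in QSC; Calcr and Chodl had less. Of 15 leukocyte markers, 10 and 11 were above 0 in ASC and 6 and 6 in QSC (summed 18.9 and 18.2 kb against 12.02 and 13.0 kb). Of 13 tested, 5 had more, against 7.56% of all loci. Ptprc, Laptm5 and Itgam were at 0 in both QSC libraries, while Cd8a, Adgre1, C1qb and Lyz2 were at 0 in all 4. In ASC, Ptprc had only 0.770 and 0.286 kb and Itgam 0.533 and 0.297 kb. The calls of Laptm5, Itgam and C1qa were lost without any 1 library, and that of Ptprc passed only without ASC replicate 2. The Cd3e call held without any single library and was lost with the stricter peak threshold. Of the 5 glial markers 5 and 4 were above 0 in both groups, of the 6 fibre markers 5 and 5 in ASC and 6 and 6 in QSC, and the 6 mural and 8 endothelial markers all were in every library. The glial markers summed to 20.5 and 19.9 kb in ASC against 13.6 and 14.3 kb, the mural markers to 18.6 and 14.95 kb against 21.6 and 22.6 kb, the endothelial markers to 19.7 and 20.5 kb against 18.9 and 21.7 kb, and the fibre markers to 8.58 and 9.50 kb against 10.8 and 11.8 kb. The 6 fibroadipogenic markers summed to 19.8 and 20.7 kb in ASC against 28.0 and 22.6 kb, with 5 and 5 above 0 against 6 and 5, and Lum was at 0 in both ASC libraries. Wider lists of the same cells are set against 7.56% with more and 5.25% with less over all loci. Leukocyte loci had 5 of 21 with more (23.8%) and 0 with less. Glial loci had 3 of 11 with more (27.3%: Gldn, S100b and Mbp) and 0 with less. Mural loci had 2 of 12 with less (16.7%: Tagln and Myh11) and 0 with more. These 0 counts, by limma, were also 0 at an unadjusted p under 0.05. The endothelial list (10.5% with more, 5.26% with less) and the fibroadipogenic list (5.26% and 15.8%) had calls in both directions. By rank, 1 of 24 shared leukocyte regions was higher (4.17%) and 3 lower (12.5%), against 8.06% and 8.18% of all shared regions. Of 21 glial regions 0 ranked higher and 1 lower (4.76%), and of 27 mural regions 2 each way (7.41%). Of 45 endothelial regions 3 ranked each way (6.67%), and of 43 fibroadipogenic regions 1 ranked higher (2.33%) and 6 lower (13.95%). Of 19 endothelial loci, Flt1 and the transcription factor gene Sox17 had more (Sox17 at 1.85 and 2.62 kb in ASC and listed at 0 in QSC), while Erg, another endothelial transcription factor gene, had less (6.40 and 5.27 kb against 11.4 and 9.79 kb, adjusted p = 0.0451, lost without any 1 library), as did the endothelial marker Tek. Of 19 fibroadipogenic loci, Smoc2 had more (6.56 and 7.21 kb against 1.60 and 3.18 kb, log2 change 1.41, adjusted p = 0.0300, lost without any 1 library), and Tnfaip6 (0.589 and 0.585 kb against 2.46 and 3.01 kb), Dpp4 and Htra3 had less. Gldn, a gene of peripheral glia, was listed at 0 kb in QSC with 1.87 and 1.94 kb in ASC. The part of other cells in the changes at immune, glial, matrix and contractile genes was not tested, and in these bulk libraries fewer cells of a type and less open chromatin per cell cannot be told apart.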

How the data were processed

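ATAC-seq peak lists of 8 libraries were used, 2 per group. The submitters' processing notes name, with no role or order, bcl2fastq 2.19, bedtools 2.26.0, Bowtie2 2.3.2, MACS2 2.1.1, Picard 2.9.2, SAMtools 1.3, Trimmomatic 0.36 and build mm10; settings are unknown here. Each deposited list holds broad peaks of 1 library with a display score, a fold enrichment over local background and −log10 p and q values, all made by the authors' peak caller. Depth is not recorded, so no interval from counts can be given. The score and −log10 p were not used.

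From these lists, peaks of all libraries that overlap or touch were merged into regions. Over regions held by both ASC and both QSC libraries, the highest fold enrichment per region was ranked within each library, turned into normal scores and tested with limma 3.58.1 (R 4.3.3) on the 4 libraries. Covered length was summed over each RefSeq gene body with 10 kb on both sides, scaled to the mean total over libraries, tested as log2(bp + 500) with limma's trended spread on all 8 libraries and 4 group means, for genes with at least 200 bp in at least 2 libraries. A log2 change on that scale understates changes at small values. P-values were adjusted by Benjamini-Hochberg over all regions or genes, with a threshold of 0.05. Gene starts and promoter sequences came from RefSeq (GRCm38.p6), with 32851 starts listed. Chromosome 18 starts were not used here, and other starts may be missing. The nearest listed start to the region inside Elp3 lay 1623509 bp away, so distances are to listed starts only. The scripts were tested on simulated data.

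Genes were named by rules: the largest surplus of regions of 1 group, the widest rank gaps among called regions, the strongest starts held by 1 group, the lowest p among loci with at least 1 kb in all 4 libraries, members of the gene lists, and the 4 lineage genes. Sodium channel and keratin members, Dmd outside its start and the choice of regions shown within lists were picked after their values were seen. The members and lists were chosen with earlier results of these data known. Alternatives covered scaling, filters, flanks, the pseudocount, the peak threshold, the ranked value, the merging and each library left out. Results on a few items are not reported here.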

Additional observations from a re-analysis of the deposited data

How the results depend on the processing

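The number of peaks and the height of weak peaks limit these comparisons, and depth cannot be used to weigh them. Leaving out 1 library moved loci with more covered length to 379 to 1693 and with less to 333 to 1304 (from 2112 and 1468), regions ranked higher to 1451 to 2085 and lower to 1415 to 2259 (from 3173 and 3221), ASC-only regions to 9613 to 17931 and QSC-only regions to 12960 to 18433. Loci with more and with less were 1015 and 805 without scaling, 1182 and 860 without a filter, 4607 and 2479 with 50 kb on both sides, and 688 and 498 fitted on the 4 libraries. Ranking −log10 q gave 4849 raised regions, and a minimum −log10 q of 5 per peak gave 1168 raised, 1229 lowered and 5201 ASC-only regions. A window of 5 kb put 16.6% of ASC-only, 11.6% of QSC-only and 38.6% of shared regions near a start. The cause was not tested for any of these.

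With a replicate block, 1875 loci had more and 1318 less, and 3614 regions ranked higher and 3723 lower. Same-numbered libraries did not deviate together (r = 0.0429 for covered length and 0.0643 for rank). Such values cannot show whether these libraries share an animal or a batch, and the labels name no pairing. Of the called loci 2969 of 3580, and of the called regions 6375 of 6394, were called in the block too.

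Signs of log2 changes in covered length turned as follows. With that minimum they were Camta1 −0.029, Fhit 0.33, Sgms1 0.088, Galnt9 −0.45, Pax7 −0.18, Myog −0.40, Foxo1 0.023, Eya4 0.010, Ccnd2 −0.061, Kcnd3 −0.023, Kcnq3 1.94, Itga9 −0.43, Cdh4 −0.76, Cdh20 0.087, Opcml −0.31, Insr 0.27, Tcf7 −0.59, Tgfbr2 −0.0943, F2 −0.048, and 0 for Itgam and C1qa. Over gene bodies alone they were Myf5 0.071, Myog −0.016, Egr1 0.052, Fabp3 0.11 and Itgam 0. With 50 kb on both sides they were Pax7 −0.12, Myog −0.31, Ccl7 0.15 and Ptprc −0.087. Sgms1 was 0.12 with quantile normalization, Pax7 −0.052 without scaling and Kcnq3 0.043 with equal list lengths. Without 1 library, Sgms1 ranged from −0.26 to 0.098, Galnt9 from −0.040 to 0.27 and Pax7 from −0.10 to 0.13. By −log10 q, rank differences turned at a Bmp6 region (−0.083), an E2f2 region (0.045), a Ccl11 region (−0.35) and a Tnni2 region (0.0070). The cause was not tested for any of them; of the turned values, Kcnq3 and Cdh4 passed the threshold.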

Other observations

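Regions held by 1 group were spread unevenly over chromosomes. Chromosome X held 99 ASC-only and 296 QSC-only regions, so that 25.1% of them were ASC-only, against 34.1% on chromosome 16 (269 and 520) and 34.7% on chromosome 10 (408 and 769). Chromosome 11 held 618 and 514 (54.6%). These are counts with no test.

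Other gene families, grouped by symbol, were not described above. Over all regions, 8465 were ASC-only and 12069 QSC-only. Matrix metalloproteinase loci held 10 ASC-only and 0 QSC-only regions, and 1 of 14 had more covered length (7.14%, against 7.56% of all loci). Unconventional myosin loci held 34 and 16, with 4 of 25 with more (16.0%) and 1 with less (4%, against 5.25% of all loci). Calcium channel subunit loci had 6 of 26 with more (23.1%) and 1 with less (3.85%). Of the histone cluster loci, 0 of 65 passed in either direction by limma, with 5 more and 0 less at an unadjusted p under 0.05.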
